A study of Homo sapiens with 70 samples.

Results

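The senescence response to oncogenic RAS was followed in IMR90 fibroblasts that carried a pair of empty vectors. The comparison was made of 10 libraries out of 70 in the series, chosen by their labels alone: 5 of growing cells (Grow-v-v, day 0) and 5 of cells in oncogene-induced senescence (OIS-v-v, 6 days of 100 nM 4-hydroxytamoxifen, 4OHT). IMR90 is a diploid line of human fetal lung fibroblasts. All the cells carried ER:HRAS G12V in pLNCX2, a mutant HRAS fused to an oestrogen receptor domain, so that the protein acts when 4OHT is given. The v-v cells also carried pSuper v, the empty vector matched to the hairpin against CEBPB, and pMSCV miR v, another empty hairpin vector, and no hairpin. The response was set beside that of 16 libraries from a separate experiment of the same study with the same transgene and pMSCV miR v only, 8 Grow and 8 OIS (100 nM 4OHT, 6 days). The 2 experiments shared no library.

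Oncogenic RAS signals through the MAP kinase cascade, which switches on immediate early transcription factors and, with them, inhibitors that feed back on the cascade itself (the dual-specificity phosphatases, Sprouty and SPRED proteins). In primary fibroblasts sustained RAS activity ends in senescence, a lasting cell cycle arrest held by CDK inhibitors such as p21 and p16, with loss of lamin B1 from the nucleus. Senescent cells secrete cytokines, chemokines, growth factors and matrix proteases, together named the senescence-associated secretory phenotype (SASP), under the control of C/EBPβ and NF-κB, and they lose the fibrogenic programme of collagens and contractile proteins. The question of the comparison was which genes carried this response in the double-vector cells, and how far it agreed gene by gene with the response in the single-vector cells.

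Poly(A) RNA of bulk cultures was sequenced, so fewer cells of a kind and less RNA per cell cannot be told apart. Each table held whole-number counts for 44503 genes. The total count per library was 14544053 to 20390180 in Grow-v-v and 16481086 to 18720716 in OIS-v-v. It was 13904974 to 21337019 in Grow and 1903607 to 18475595 in OIS, where OIS replicate 4 was the shallow library. Levels below are in CPM, read counts scaled to the library total after TMM adjustment. The labelled cell type was checked against its markers. The 15 fibroblast markers, collagens and VIM among them, summed to 40515 to 53996 CPM in Grow-v-v and 15382 to 22797 CPM in OIS-v-v, whereas of 18 markers of epithelial, endothelial and blood cells found by name, 9 had no count in any double-vector library and 13 stayed under 1 CPM. The summed level of those 18 was 112 to 152 CPM in Grow-v-v and 138 to 169 CPM in OIS-v-v, and their part in the results was not tested. Replicates 1 to 3 and replicates 4 to 5 of the double-vector cells stood apart in both states, with 0.389 to 0.535 (SD of log2 CPM over genes) between Grow-v-v libraries of the same set and 0.601 to 0.734 between sets. For OIS-v-v these distances were 0.407 to 0.443 and 0.609 to 0.643. Values of the main genes are therefore given by library, and main counts also by replicate set. The labels do not say what set the sets apart.

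Of 13344 genes tested in the double-vector cells, 3307 rose (24.8%) and 3319 fell (24.9%) in OIS-v-v, by edgeR's quasi-likelihood test with the replicate number as a block and a Benjamini-Hochberg adjusted p under 0.05. With a response for each replicate set, 4210 rose and 4156 fell in replicates 1 to 3, and 3824 rose and 3728 fell in replicates 4 to 5. A change of 2-fold or more was passed by 858 of the rises and 1133 of the falls. The levels of the 5 Grow-v-v and 5 OIS-v-v libraries did not overlap for 4640 genes (34.8%), of which 4552 were called. In OIS against Grow, 5084 of 13304 genes rose (38.2%) and 4743 fell (35.7%).

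**Figure D1:**
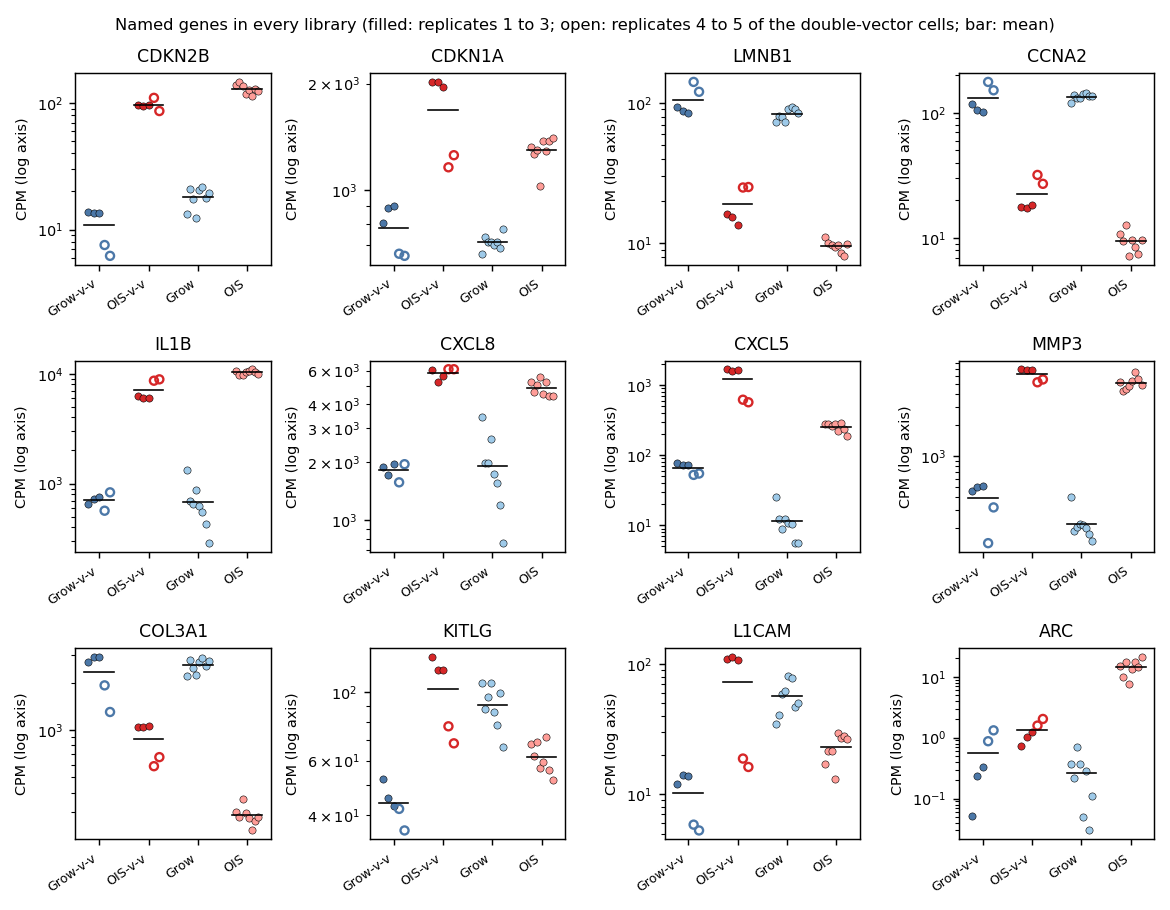
Level of 12 named genes in every library, in CPM on a log axis, for Grow-v-v and OIS-v-v (5 libraries each; filled points are replicates 1 to 3, open points replicates 4 to 5) and Grow and OIS (8 each); the bar is the mean and a level of 0 is drawn at 0.03. CDKN2B, IL1B and MMP3 were higher and LMNB1, CCNA2 and COL3A1 lower in every OIS-v-v library than in any Grow-v-v library, while KITLG and L1CAM moved up in the double-vector cells and down in the other experiment.

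Among 20 senescence regulators and markers, 6 rose and 11 fell. CDKN2B, which encodes the CDK4/6 inhibitor p15 (chr9:22002902-22009362, minus strand, hg19), was at 13.8, 13.5, 13.4, 7.54 and 6.19 CPM in Grow-v-v replicates 1 to 5 and at 95.7, 94.8, 96.0, 110 and 86.5 CPM in OIS-v-v. Every OIS-v-v library lay far above every Grow-v-v library, with a log2 fold change of 3.19 ± 0.19 (SE, adjusted p = 5.02e-06). Its neighbour CDKN2A (chr9:21967751-21995300), the source of p16 and ARF, was lower in level, at 8.50 to 10.7 CPM in Grow-v-v and 16.2 to 30.5 CPM in OIS-v-v. The groups did not overlap (log2 fold change 1.27 ± 0.20, adjusted p = 0.000971), and replicates 4 and 5 gave the smaller rise, 16.3 and 16.2 CPM. An antisense gene overlaps CDKN2A, and the counting did not separate strands in the table whose settings are known. CDKN1A, which encodes p21, was at 808, 888, 900, 660 and 651 CPM in Grow-v-v and 2021, 2016, 1959, 1159 and 1254 CPM in OIS-v-v, again without overlap (1.08 ± 0.10, adjusted p = 4.39e-05).

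LMNB1, which encodes lamin B1 (chr5:126112315-126172712, plus strand, hg19), was at 92.8, 88.1, 84.5, 141 and 120 CPM in Grow-v-v and fell to 16.2, 15.5, 13.5, 25 and 25.2 CPM in OIS-v-v. The fall was of 2.48 on the log2 scale (SE 0.08, adjusted p = 3.5e-07), and the replicates of the second set were the higher ones in both states. GDF15, a secreted stress factor, had the largest rise on the list (log2 fold change 4.13), from 17.0 to 61.0 CPM to 413 to 801 CPM. CDKN2C, the gene of p18, another CDK4/6 inhibitor, had the largest fall (−3.02), from 40.9 to 65.4 CPM to 5.90 to 6.80 CPM. CDKN2B and CDKN2C, inhibitors of the same kinases, thus went opposite ways.

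CEBPB and HMGA1, both targets of hairpins in the study, gave smaller changes. CEBPB, a driver of the inflammatory SASP, rose from 158 to 191 CPM to 261 to 330 CPM (0.74 ± 0.07, adjusted p = 4.53e-05). HMGA1, a chromatin protein of senescence-associated heterochromatin, was at 930, 971, 957, 1293 and 1871 CPM in Grow-v-v and 1131, 1174, 1110, 1615 and 1519 CPM in OIS-v-v. The groups overlapped and the change did not pass (0.16 ± 0.11, adjusted p = 0.253). Replicate 5 decided this, since HMGA1 passed without Grow-v-v replicate 5 (0.27, adjusted p = 0.00425) and without OIS-v-v replicate 5 (0.27, adjusted p = 0.00405). With the block both fits rest on the same remaining pairs, so they are not separate checks. HRAS counts hold reads of the endogenous gene and of the transgene together, and 4OHT acts on the fusion protein, so they are no check of induction. They were at 1423, 1441, 1514, 1438 and 1838 CPM in Grow-v-v and 1317, 1296, 1306, 1053 and 1224 CPM in OIS-v-v. All 5 OIS-v-v libraries were lower, by 0.30 on the log2 scale (adjusted p = 0.0322), a call that was lost without replicate 2, 3 or 4 of either group, with adjusted p from 0.0537 to 0.0821.

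RAS feedback and MAP kinase target genes rose together, 17 of 23 up and 1 down, with a median log2 fold change of 1.29 over the 23 against 0.01 over all genes tested. DUSP4, a nuclear phosphatase of MAP kinases, was at 10.5, 10.2, 11.6, 3.70 and 3.27 CPM in Grow-v-v and 123, 129, 123, 48.4 and 54.2 CPM in OIS-v-v. Its level was lower in the second set in both states while its fold was alike (3.55 in replicates 1 to 3 and 3.85 in replicates 4 to 5, log2), and it had the largest rise on the list (3.65 ± 0.10, adjusted p = 3.17e-07). The EGF receptor ligand HBEGF rose from 14.2 to 25.2 CPM to 37.7 to 65.8 CPM (1.63), and AREG, another such ligand, rose by 1.73 on the log2 scale. FOSL1, which encodes the AP-1 subunit FRA1, was the member that fell (−0.66).

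Immediate early genes did not move as a block, with 7 of 15 up and 5 down. EGR3 rose from 0.556 to 0.807 CPM to 7.44 to 11.5 CPM (log2 fold change 3.72), and the orphan nuclear receptor gene NR4A3 rose by 2.68. EGR1, the best known of the family, rose from 31.7 to 37.9 CPM to 65.4 to 114 CPM (1.18 ± 0.11, adjusted p = 6.22e-05). EGR2 differed by replicate set, with a log2 fold change of −0.04 in replicates 1 to 3 and 1.56 in replicates 4 to 5, and did not pass over all 5 pairs (0.62, adjusted p = 0.143). The largest fall was of KLF2, a flow- and stress-responsive Krüppel-like factor, from 50.8 to 98.9 CPM to 7.55 to 11.3 CPM (−2.87).

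The inflammatory SASP was the group with the highest median change, 2.45 on the log2 scale, with 20 of 23 tested members up and 2 down. IL1B, the gene of the cytokine interleukin-1β (chr2:113587328-113594480, minus strand, hg19), was at 648, 723, 746, 565 and 831 CPM in Grow-v-v and 6235, 6000, 6031, 8655 and 8905 CPM in OIS-v-v. The lowest OIS-v-v library, at 6000 CPM, was far above the highest Grow-v-v library, at 831 CPM (3.34 ± 0.15, adjusted p = 1.18e-06). CXCL8, the gene of interleukin-8, started high, at 1572 to 1959 CPM, and rose to 5248 to 6104 CPM (1.68), and IL6 rose from 553 to 661 CPM to 1011 to 1634 CPM (1.01). The neutrophil chemokine genes CXCL1, CXCL2, CXCL3 and CXCL5 lie in a cluster on chromosome 4 and are near-identical in part, so that reads among CXCL1, CXCL2 and CXCL3 can be split wrongly. CXCL5 was at 77.4, 72.2, 73.4, 52.5 and 54.9 CPM in Grow-v-v and 1691, 1582, 1628, 621 and 571 CPM in OIS-v-v. The OIS-v-v libraries split by replicate set, and both sets lay above all Grow-v-v libraries (4.07 ± 0.21, adjusted p = 2.8e-06). CXCL3 rose by 3.44, CXCL2 by 2.77 and CXCL1 by 1.92 on the log2 scale.

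TNFSF15, a TNF superfamily ligand, led the list with a log2 fold change of 6.82 ± 0.14 (adjusted p = 2.11e-07), from 3.97, 3.35, 4.18, 1.82 and 2.16 CPM in Grow-v-v to 386, 398, 359, 290 and 290 CPM in OIS-v-v. CSF3, which encodes the granulocyte growth factor G-CSF, rose by 3.56 and the TGF-β family ligand gene BMP2 by 2.80. The member with the largest fall was CCL2, the monocyte chemokine MCP-1, from 12.5 to 14.8 CPM to 5.40 to 9.24 CPM (−0.92 ± 0.11, adjusted p = 0.000289). Genes of the NF-κB subunits, inhibitors and targets gave 6 rises and 1 fall of 18. The prostaglandin synthase gene PTGS2 rose by 2.95 and ICAM1, a leukocyte adhesion molecule, by 1.26, VCAM1, another adhesion molecule, fell by 3.33, and the feedback inhibitor TNFAIP3 did not pass (−0.01).

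The matrix metalloproteinases and their inhibitors gave 11 rises and 4 falls among 19. MMP1, the interstitial collagenase, was at 3518, 3439, 3672, 1359 and 2287 CPM in Grow-v-v and 17902, 16851, 17640, 18040 and 18816 CPM in OIS-v-v. The groups did not overlap, and Grow-v-v replicates 4 and 5 were the low ones before induction (2.73 ± 0.23, adjusted p = 2.98e-05). MMP3, stromelysin 1, rose from 459, 503, 512, 142 and 316 CPM to 6966, 6817, 6778, 5201 and 5541 CPM (4.14 ± 0.23, adjusted p = 3.5e-06). An antisense gene overlaps MMP1 and MMP3. MMP9, a gelatinase, came up from 0 to 0.139 CPM to 0.983 to 3.09 CPM, and TIMP3, an inhibitor of these proteases, fell from 320 to 498 CPM to 142 to 151 CPM (−1.35).

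Promoters of the genes with the strongest shared rises were searched for the motifs of NF-κB and AP-1 and for TATAAA. A motif of C/EBPβ was not searched. The windows ran from 250 bases before to 50 bases after the start in RefSeq (GRCh38.p14), read on both strands, and the genes were those that changed at least 4-fold in the same direction in both experiments. Of 203 such genes that rose, 125 had a window, and 12 of these (9.60%) held a match to the NF-κB motif κB, against 5.72% of all 27305 windows and 6.54% of the 10772 windows of tested genes. The AP-1 motif (TGACTCA or TGAGTCA) stood in 14 (11.2%), against 4.92% and 3.34%, and TATAAA in 19 (15.2%), against 12% and 5.81%. Among the 189 windows of genes that fell at least 4-fold in both experiments, the shares were 6.35% (κB), 3.17% (AP-1) and 9.52% (TATAAA). A match is a description of letters, not a site shown to be used. The stretches shown are of 3 chemokine genes and of TNFSF15. These are SASP genes described above that belong to the 203 and whose window holds a κB or AP-1 motif. The stretches run 5′ to 3′ along the gene's strand, with the κB matches (both strands, overlapping) or the AP-1 match in capitals. They lie at chr4:74099224-74099313 (CXCL2, minus), chr4:74038719-74038808 (CXCL3, minus), chr4:73998719-73998808 (CXCL5, minus) and chr9:114792604-114792690 (TNFSF15, minus).
CXCL2: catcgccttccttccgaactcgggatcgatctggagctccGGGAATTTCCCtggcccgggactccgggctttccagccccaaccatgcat
CXCL3: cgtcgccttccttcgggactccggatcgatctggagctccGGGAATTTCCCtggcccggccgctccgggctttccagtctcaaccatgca
CXCL5: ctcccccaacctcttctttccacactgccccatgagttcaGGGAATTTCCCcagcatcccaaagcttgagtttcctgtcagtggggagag
TNFSF15: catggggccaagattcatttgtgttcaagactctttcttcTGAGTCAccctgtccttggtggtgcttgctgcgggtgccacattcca
The 3 chemokine windows held the same letters at the match. CXCL1 and CXCL8 rose less than 4-fold in the double-vector cells and are not among these genes. The window of CXCL1 held 2 κB matches and that of CXCL8 held no κB match.

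Cell cycle genes fell as the most uniform group. All 53 G2/M phase genes tested fell (median log2 fold change −2.31) and 38 of 42 S phase genes fell (median −1.55), with none up. The summed level of the G2/M genes was 6193, 5752, 5672, 9200 and 8599 CPM in Grow-v-v and 2126, 2122, 2102, 2909 and 2900 CPM in OIS-v-v. The second replicate set was higher in both states, and the groups did not overlap. CCNA2, which encodes cyclin A2 (chr4:122737599-122745087, minus strand, hg19), fell from 118, 105, 101, 176 and 151 CPM to 17.6, 17.5, 18.5, 31.9 and 27.1 CPM (−2.54 ± 0.07, adjusted p = 3.17e-07). MKI67, the proliferation marker Ki-67, fell from 285, 286, 237, 501 and 347 CPM to 43.2, 53.8, 42.8, 79.1 and 88.1 CPM (−2.45 ± 0.11, adjusted p = 1.32e-06). The fall was of 2.59 for the mitotic kinase gene PLK1, 2.30 for CDK1, 2.28 for the cyclin gene CCNB1 and 2.31 for TOP2A, which encodes topoisomerase IIα. CDCA3, a trigger of mitotic entry, had the largest fall among G2/M genes (−2.75) and E2F8, a repressor of E2F targets, among S phase genes (−2.97). PCNA, the replication clamp, fell by 1.29 and E2F1 by 1.64. CTCF, counted in the G2/M list but known as a chromatin insulator protein, fell by only 0.35.

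The cell cycle homology region (CHR, TTTGAA or TTCGAA), through which DREAM and MuvB complexes act on mitotic genes, stood in 67 of 189 windows (35.4%) of genes that fell at least 4-fold in both experiments, out of 260 such genes. It stood in 16.6% of all windows, in 11.4% of those of tested genes and in 12.8% of those of the genes that rose. The E2F motif (TTTCGCGC or TTTGGCGC) stood in 7 (3.70%), against 1.18% of all windows and 1.98% of those of tested genes, and CCAAT in 80 (42.3%), against 35.7% and 36.3%. The window of CCNB1 held no CHR match, and the only match of CDK1 began 161 bases before the start. The following stretches of 4 mitotic genes show the motif near the start in capitals, at chr12:6851244-6851329 (CDCA3, minus), chr2:26785998-26786083 (CENPA, plus), chr16:23678820-23678905 (PLK1, plus) and chr10:128126425-128126510 (MKI67, minus), where MKI67 has it more than once.
CDCA3: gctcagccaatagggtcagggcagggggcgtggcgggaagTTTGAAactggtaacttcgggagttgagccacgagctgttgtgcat
CENPA: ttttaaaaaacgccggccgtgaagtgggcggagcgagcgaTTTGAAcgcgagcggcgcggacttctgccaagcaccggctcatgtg
PLK1: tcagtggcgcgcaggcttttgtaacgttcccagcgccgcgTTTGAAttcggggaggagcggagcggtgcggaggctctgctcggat
MKI67: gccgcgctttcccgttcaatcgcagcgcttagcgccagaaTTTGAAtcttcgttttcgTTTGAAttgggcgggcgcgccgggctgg

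The fibrogenic programme fell. Of 43 genes for collagens and other extracellular matrix proteins, 31 fell and 4 rose (median log2 fold change −0.79), and of 27 genes for actomyosin and targets of SRF and YAP, 25 fell and none rose (median −1.04). The summed matrix level was 123500, 130797, 124763, 107231 and 86690 CPM in Grow-v-v and 79371, 82833, 78855, 59982 and 65747 CPM in OIS-v-v. Every OIS-v-v library was below every Grow-v-v library. COL15A1, a basement membrane collagen, had the largest fall of the list, from 118, 123, 117, 106 and 73.2 CPM to 8.68, 9.93, 9.68, 5.98 and 6.39 CPM (−3.72 ± 0.11, adjusted p = 3.17e-07). COL3A1, the fibrillar collagen III (chr2:189839046-189877472, plus strand, hg19), fell from 2733, 2954, 2914, 1933 and 1307 CPM to 1041, 1051, 1060, 589 and 673 CPM (−1.40 ± 0.11, adjusted p = 2.17e-05). Fibulin 2 (FBLN2) fell by 2.19 and fibrillin 2 (FBN2) by 1.08, while biglycan (BGN) did not pass (−0.16, adjusted p = 0.143). Periostin (POSTN), a matricellular protein, had the largest rise (1.03).

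Among contractile genes LMOD1, the actin nucleator leiomodin 1, fell from 67.4, 71.6, 68.7, 42.3 and 26.5 CPM to 3.49, 4.94, 3.85, 2.61 and 1.60 CPM (−4.06 ± 0.10, adjusted p = 2.11e-07). Its window holds the CHR letters too, although it is no mitotic gene. CCN2, known as CTGF and a standard YAP and TGF-β target, fell from 1033 to 1141 CPM to 305 to 353 CPM (−1.71 ± 0.07, adjusted p = 1.09e-06). Fibroblast markers fell for 9 of 14 and rose for none, which includes collagens counted above and DCN, the proteoglycan decorin (−2.17).

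Metabolic, stress and signalling groups were mixed. Lysosome genes rose for 19 of 26 and fell for 1 (median 0.69), ATP6V0D2, a proton pump subunit, the most (4.40) and CTSK, the collagenase cathepsin K, from 48 to 57.2 CPM to 100 to 124 CPM (1.08). Glycolysis and hypoxia genes rose for 14 of 31 and fell for 4, with the hexokinase gene HK2 up by 1.54 and the glucose transporter gene SLC2A1 down by 0.86 on the log2 scale. Notch genes gave 6 rises and 3 falls of 15, with the ligand JAG2 up by 2.33 and the receptor NOTCH3 down by 1.39. Of 23 amino acid and ER stress genes, 3 rose and 8 fell, with the serine synthesis enzyme PHGDH down by 2.18 and the pseudokinase TRIB3 up by 0.91. Of 35 complex I genes, 5 rose and 2 fell, of 22 cholesterol genes 5 rose and 3 fell, of 34 interferon-stimulated genes 5 rose and 4 fell, of 51 cytosolic ribosomal protein genes 1 rose (RPS24) and 1 fell (RPL10), and of 3 metallothionein genes 1 rose and 1 fell. For the complex I, cholesterol, interferon and ribosomal lists the share called in each direction lay below the background of 24.8% and 24.9% over all genes.

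**Figure D2:**
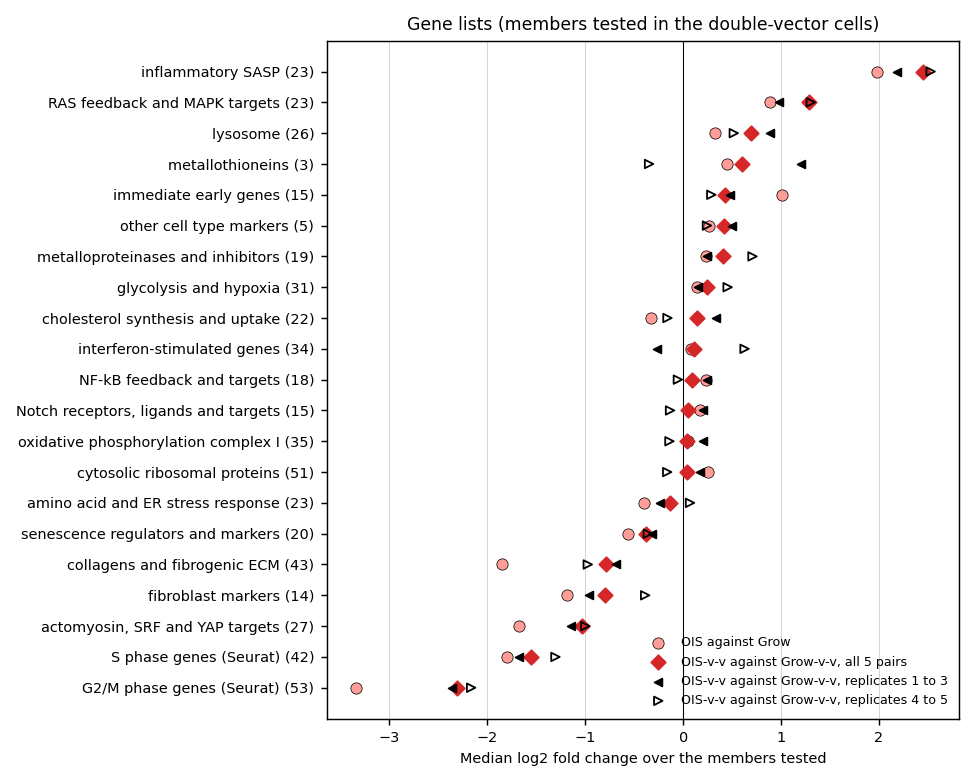
Median log2 fold change over the tested members of each gene list (number in brackets) for OIS against Grow, for OIS-v-v against Grow-v-v over all 5 pairs, and for its replicates 1 to 3 and 4 to 5 apart. The inflammatory SASP stands highest at 2.45 and G2/M phase genes lowest at −2.31 in the double-vector cells, and the largest gaps to the other experiment are those of G2/M genes (−3.34) and matrix genes (−1.85).

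Beside TNFSF15, the largest rises were of transcripts with few or no counts before induction. LCE1F, a late cornified envelope gene of skin with near-identical relatives, had no count in any Grow-v-v library and 3.61, 4.04, 4.61, 3.86 and 3.56 CPM in OIS-v-v. With 0 counts against 340 it was at least 109-fold higher, taking 3 counts over the group as the floor. IL36RN, an antagonist of interleukin-36, had none in Grow-v-v and 4.17, 5.59, 4.32, 1.36 and 2.21 CPM in OIS-v-v, at least 97.6-fold higher. The long non-coding RNA LINC02154 went from 0 to 0.305 CPM in Grow-v-v to 5.28 and 3.93 CPM in OIS-v-v replicates 4 and 5 and to at least 38.2 CPM in replicates 1 to 3, with the sets apart in level. ENSG00000227363 went from 0 to 0.278 CPM to 9.22 to 15.2 CPM. All 4 rose in OIS against Grow as well, LCE1F with 1 count in Grow against 529 in OIS, a ratio of 642 (95% counting interval 115 to 2.54e+04), and IL36RN with 1 against 488, a ratio of 592 (106 to 2.34e+04).

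The largest falls were those of CXCL12, the chemokine SDF-1, from 6.01, 6.34, 7.07, 13.9 and 17.8 CPM to 0.113, 0.476, 0.408, 0.272 and 0.369 CPM (−4.89 ± 0.29, adjusted p = 5.45e-06), and of PDE7B, a cyclic AMP phosphodiesterase, from 5.25 to 8.04 CPM to 0.175 to 0.435 CPM (−4.43). ENSG00000254510 fell by 4.08, LMOD1 by 4.06 and ADAMTSL1, a secreted ADAMTS-like protein, by 3.99. All 5 fell in OIS against Grow too, by 6.52, 4.37, 3.81, 5.39 and 4.17 in the same order.

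Gene by gene, the response was compared with that of OIS against Grow. Of 12792 genes tested in both experiments, 10100 (79.0%) had the same sign. Of these 12792, 5612 were called in both, and 5395 of these (96.1%) had the same direction, 2688 higher and 2707 lower. By replicate set 6181 genes (replicates 1 to 3) and 5464 (replicates 4 to 5) were called in the same direction as in OIS against Grow. The 5395 genes were 83.7% of the double-vector calls and 56.7% of the single-vector calls among genes tested in both. A further 831 genes were called in the double-vector cells only (64.4% had the same sign in the other experiment), 3908 in the single-vector cells only (71.8% the same sign) and 2441 in neither. Among the 1490 genes called at 2-fold or more in both, 5 had opposite directions. Pearson's r of the log2 fold changes across the 12792 genes was 0.881, and 0.935 across those called in both; genes are not independent replicates, and the r is given as a description. The principal axis had a slope of 0.801 log2 units in the double-vector cells per unit in the other experiment, with a spread of 0.861 against 1.05 (SD). Each double-vector pair alone gave r of 0.744 to 0.821.

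**Figure D3:**
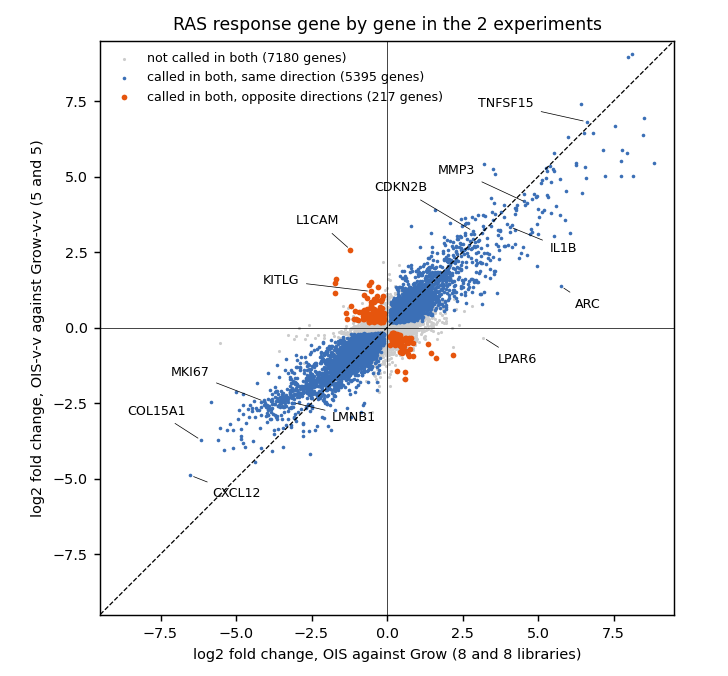
Each point is a gene tested in both experiments, with the log2 fold change of OIS against Grow on the horizontal axis and of OIS-v-v against Grow-v-v on the vertical axis; the dashed line marks equal responses. The 5395 genes called in both in the same direction lie along the diagonal and below it in size for the falls, and most of the 217 called in opposite directions lie close to the centre, with L1CAM and KITLG farther out.

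The size of the response was smaller in the double-vector cells for 64.2% of the genes that fell in both (median −0.77 against −0.93) and for 53% of those that rose in both (0.63 against 0.67). CDKN2B (3.19 against 2.85), CDKN1A (1.08 against 0.87), CXCL8 (1.68 against 1.48), IL6 (1.01 against 0.58) and MMP3 (4.14 against 4.62) did not pass the test of the difference, with adjusted p from 0.111 to 0.524. By replicate set 4 of them did pass in 1 set, CDKN1A (0.37) and MMP3 (−0.79) in replicates 1 to 3 and CDKN2B (0.96) and IL6 (0.81) in replicates 4 to 5, with adjusted p from 0.000398 to 0.0123. TNFSF15 was nearly level at 6.82 against 6.61 over all 5 pairs. Its difference passed in replicates 4 to 5 (0.55, adjusted p = 0.0435) and not in replicates 1 to 3 (0.04, adjusted p = 0.851). For CDKN1A the difference over all 5 pairs was 0.22 ± 0.10 (SE) on the log2 scale. Of the other genes the study names, GABRA2, a GABA receptor subunit, rose by 3.39 against 4.12 (log2), PDLIM4, an actin-binding protein, by 1.16 against 1.14, TGFBI changed by −0.39 against −0.71 and PDGFB by −0.62 against −0.93. The near-equal PDLIM4 values hide a split by set, with a rise of 1.56 in replicates 1 to 3 and 0.55 in replicates 4 to 5. Its difference from OIS against Grow passed in each set with opposite signs (0.42, adjusted p = 0.00523, and −0.59, adjusted p = 0.00115). PRKG1, a cyclic GMP kinase, did not pass in the double-vector cells (−0.09), with −0.45 in replicates 1 to 3 and 0.47 in replicates 4 to 5, and its value was 0.03 without replicate 1 of either group.

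The test of the difference between the responses called 2332 of 14351 genes with a higher log2 fold change in the double-vector cells (16.2%) and 1721 with a lower one (12%). The balance of the directions depended on the scaling. Scaling by library size alone moved the median log2 value over all genes by 0.190 in OIS against Grow and by −0.195 in the difference, and 23.9% of the difference calls were higher in place of 57.5%. A difference of the same sign was called under all 4 scalings for 2788 genes, 1263 higher and 1525 lower. For G2/M, S phase, matrix and actomyosin genes the median difference kept its sign under all of them.

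The cell cycle fall was shallower in the double-vector cells. G2/M genes fell by a median of 2.31 against 3.34 in OIS, and the difference was called for 40 of 53 in that direction and for 1, CTCF, in the other. By replicate set it was called for 41 and 2 in replicates 1 to 3 and for 42 and 4 in replicates 4 to 5, which share the Grow and OIS libraries they are compared with. MKI67 differed by 1.60 ± 0.16 (adjusted p = 4.98e-07): OIS libraries ran from 14.6 to 23.0 CPM (median 19.1), below the lowest OIS-v-v library at 42.8 CPM, whereas Grow libraries ran from 248 to 380 CPM (median 314), inside the range of Grow-v-v. CCNA2 gave the same picture, with OIS at 7.22 to 12.7 CPM and OIS-v-v at 17.5 to 31.9 CPM (difference 1.27 ± 0.12, adjusted p = 3.18e-07). The difference was also called for CENPA, the centromeric histone (1.68), PLK1 (1.02), CDK1 (1.08) and TOP2A (1.10), whose levels were laid out in other ways. TOP2A was at 480 to 605 CPM in Grow, above the 294 to 463 CPM of Grow-v-v, and its OIS libraries (36.2 to 68.1 CPM) overlapped those of OIS-v-v (51.3 to 105 CPM). LMNB1 fell less as well (0.65 ± 0.11, adjusted p = 0.00029). Among S phase genes 19 of 42 differed in this direction, E2F8 the most (1.60), and 3 in the other, with NASP, a histone chaperone, at −0.49 and PCNA at −0.43. Under scaling by library size alone these counts were 10 and 6, and the median difference of the S phase genes was 0.052 in place of 0.247. In replicates 4 to 5 alone E2F8 (0.997, adjusted p = 0.185) and NASP (−0.27, adjusted p = 0.0582) did not pass.

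The matrix and contractile falls were shallower too. Of 43 matrix genes 31 had a higher log2 fold change in the double-vector cells and 4 a lower one (median difference 0.81), and in replicates 1 to 3 and 4 to 5 the counts were 31 and 5, and 31 and 2. COL15A1 differed by 2.44 ± 0.16 (adjusted p = 9.43e-09), with OIS at 0.902 to 2.25 CPM and OIS-v-v at 5.98 to 9.93 CPM, and COL3A1 by 1.78 ± 0.14 (adjusted p = 3.91e-08), with OIS at 229 to 363 CPM. Against this direction went fibromodulin (FMOD), which fell in the double-vector cells from 5.08 to 10.1 CPM to 1.41 to 3.32 CPM and rose in the other experiment from 6.90 to 11.3 CPM to 8.96 to 13.5 CPM (difference −1.79 ± 0.16, adjusted p = 1.31e-07), and FBLN2 (−0.98). Of 27 actomyosin genes 21 differed upward and none downward, ANKRD1, a YAP target, the most (2.34), then LMOD1 (1.33), and CCN2 by 0.77.

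The SASP had no common direction of difference, with 4 of 24 higher and 6 lower. Among the lower ones were CSF3 (−2.39 ± 0.44, adjusted p = 0.000483), CXCL3 (−1.52), AREG (−1.52), CXCL2 (−1.47) and IL1B (−0.72 ± 0.26, adjusted p = 0.0415). The counts turned with the replicate set, with 5 higher and 7 lower of 24 in replicates 1 to 3 and 9 higher and 4 lower in replicates 4 to 5. Over all 14351 genes they were 2752 higher and 2208 lower in replicates 1 to 3 and 2800 and 2049 in replicates 4 to 5. The 5 higher and the 4 lower were near these shares. AREG differed in the first set only (−2.42, adjusted p = 9.87e-07, against 0.44, adjusted p = 0.497), where its response was 0.80 against 3.67 in the second, and IL1B passed in the first set (−0.93) and not in the second (−0.41, adjusted p = 0.315). Growing cells differed in the level of these chemokines. CXCL3 was at 11.6 to 18.1 CPM in Grow-v-v and 0.975 to 3.73 CPM in Grow, and at 112 to 166 CPM in OIS-v-v and 40.3 to 65.0 CPM in OIS, so that the double-vector cells were higher in both states. CXCL2 had the same order, at 6.57 to 24.4 CPM in Grow-v-v and 0.772 to 4.62 CPM in Grow, whereas CSF3 ranged from 25.2 to 99.3 CPM and from 1.62 to 26 CPM, which overlap. Levels of the 2 tables are only set side by side, since the kit of each library is not stated. BMP2 was the named member with the larger rise in the double-vector cells (2.80 against 1.88, difference 0.91). Of the RAS feedback genes 8 of 23 were higher and 2 lower in response, among them HBEGF (1.63 against 0.05, difference 1.58 ± 0.21, adjusted p = 1.82e-05). ICAM1, on the NF-κB list, was another (1.26 against −0.08, difference 1.35 ± 0.16, adjusted p = 5.17e-06). Under scaling by library size alone the RAS feedback counts were 7 higher and 6 lower, and their median difference was −0.118 in place of 0.076. EGR1 rose less than in OIS (1.18 against 2.26).

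Opposite calls were made for 217 genes, 143 higher in the double-vector cells and 74 lower, and 120 of these were called in that direction in both replicate sets. The count depended on the libraries and on the block: it was 129 to 138 without any single library of replicates 1 to 3, 128 with no replicate block, 589 from replicates 1 to 3 and 614 from replicates 4 to 5. KITLG, the ligand of the KIT receptor (chr12:88886570-88974628, minus strand, hg19), was at 52.5, 45.6, 42.7, 41.9 and 35.7 CPM in Grow-v-v and 130, 118, 118, 77.4 and 68.2 CPM in OIS-v-v. In the other experiment it went from 66.3 to 107 CPM (median 92.3) to 52.1 to 71.4 CPM (median 60.6), so that all growing double-vector libraries lay below the growing single-vector ones and 4 of 5 senescent ones above the highest OIS library (1.20 against −0.53, difference 1.74 ± 0.13, adjusted p = 2.21e-08). L1CAM, a neural adhesion molecule, was at 12.1, 14.1, 13.8, 5.85 and 5.28 CPM in Grow-v-v and 109, 114, 108, 18.8 and 16.2 CPM in OIS-v-v, against 34.6 to 80.3 CPM in Grow and 13.1 to 29.3 CPM in OIS. The rise was seen in all 5 pairs and was far larger in the first set (3.07 against 1.63, log2), and the difference between experiments was 3.85 ± 0.26 (adjusted p = 1.03e-08). NSG1, a neuronal vesicle protein (1.62 against −1.70), the interferon-inducible IFI27 (1.47 against −1.72) and KCTD4 (1.14 against −1.73) went the same ways. In the opposite sense, LINC00452 (−0.92 against 2.17), the aldo-keto reductase gene AKR1C1 (−1.01 against 1.62), ADSS1 of adenylate synthesis (−0.85 against 1.47) and the retinoic acid carrier gene CRABP2 (−0.95 against 0.85) fell in the double-vector cells. In replicates 4 to 5 alone the falls of ADSS1 (−0.73) and CRABP2 (−0.42) and the rise of IFI27 (0.76) did not pass, nor did the fall of LINC00452 in replicates 1 to 3 (−0.73). None of the 4 that fell passed 6.19 CPM in any double-vector library, and AKR1C1 has close paralogues.

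The largest differences in size also came from genes of low level. ARC, a neuronal immediate early gene, reached 7.67 to 21.5 CPM in OIS and 0.733 to 2.03 CPM in OIS-v-v, from 0 to 0.713 CPM in Grow and 0.0509 to 1.32 CPM in Grow-v-v (difference −4.43 ± 0.60, adjusted p = 2.04e-05). EGR4, of the EGR family, was also higher in OIS (0.902 to 6.44 CPM) than in most OIS-v-v libraries (0.119 to 1.84 CPM), with a difference of −5.20. Its counts were too low for the test in the double-vector cells alone, where Grow-v-v (0 to 1.46 CPM) overlapped OIS-v-v. The size of the difference rests on 4 counts in Grow against 441 in OIS. LPAR6, a receptor of lysophosphatidic acid, rose from 1.34 to 2.88 CPM to 8.89 to 26.7 CPM in OIS and did not pass in the double-vector cells, where all 10 libraries lay between 0.833 and 2.34 CPM (difference −3.49 ± 0.38, adjusted p = 1.48e-06). FAIM2 (−3.34) and MCPH1-AS1 (−3.27) followed. In the other direction HHIP, an inhibitor of hedgehog signalling, fell from 16.2 to 20.6 CPM to 5.64, 6.07, 3.91, 1.31 and 1.11 CPM in the double-vector cells and from 12 to 20.8 CPM to at most 0.451 CPM in OIS (difference 3.41 ± 0.53, adjusted p = 8.4e-05). SPNS2, the exporter of sphingosine 1-phosphate, had 2 counts in Grow-v-v and 292 in OIS-v-v, a ratio of 141 (95% counting interval 38.7 to 1.17e+03), almost all of them in replicates 1 to 3 (5.80, 5.59 and 4.55 CPM, against 0.544 and 0.430 CPM). CHST15, a sulphotransferase (5.24, 5.89 and 5.89 CPM, against 0.870 and 0.553 CPM), was of the same kind, and ENSG00000256013 had 0 counts in Grow-v-v and 11 in OIS-v-v, at least 3.54-fold higher. In replicates 4 to 5 alone the differences of SPNS2 (2.33, adjusted p = 0.114), CHST15 (3.85, adjusted p = 0.0732) and FAIM2 (−1.72, adjusted p = 0.167) did not pass. That of ENSG00000256013 did not pass there either (1.39), nor for the mean of the sets (3.83).

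**Figure D4:**
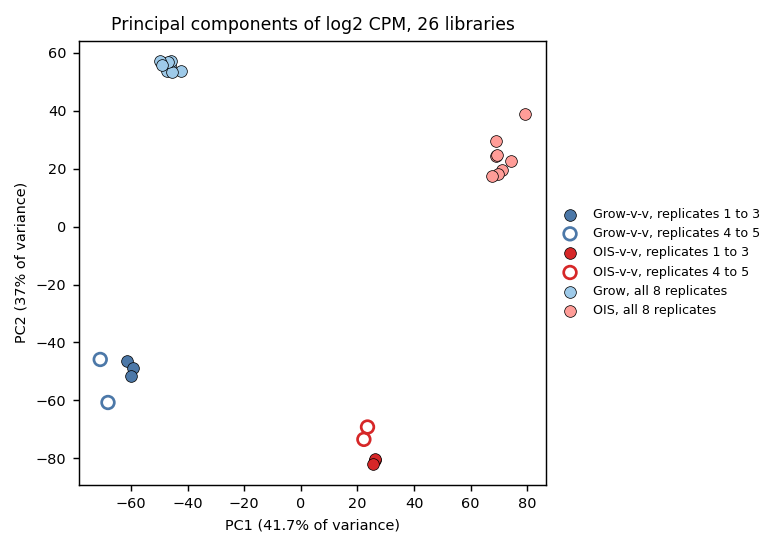
Principal components of log2 CPM over 14351 genes for the 26 libraries, with the share of the variance on each axis. The first component (41.7%) separates the states and the second (37.0%) the experiments, and within the double-vector cells replicates 1 to 3 and 4 to 5 form separate groups in both states.

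The replicate sets differed in the response itself. In a model with a response for each set, 2460 genes (18.4%) had a higher log2 fold change in replicates 4 to 5 than in replicates 1 to 3 and 2284 (17.1%) a lower one. The responses of the sets correlated at r 0.805 across genes, and those of replicates 1 to 3 and 4 to 5 with OIS against Grow at 0.840 and 0.836. Each set has fewer libraries than OIS against Grow, so these r values hold unlike noise. Their order does not show which responses are more alike. In both sets 4934 genes were called in the same direction and 592 in opposite directions, and 4266 genes were called in both sets and in OIS against Grow in a single direction, 2092 higher and 2174 lower. A difference from OIS against Grow was called for 4960 genes in replicates 1 to 3 and 4849 in replicates 4 to 5, against the same Grow and OIS libraries.

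Interferon-stimulated genes split by set, with 25 of 34 higher and 1 lower in replicates 4 to 5 than in replicates 1 to 3 (median −0.27 in the first set and 0.63 in the second). Their summed level went from 754, 783 and 800 CPM to 685, 683 and 666 CPM in the first set and from 570 and 522 CPM to 747 and 783 CPM in the second. The difference from OIS against Grow was accordingly called for 3 higher and 12 lower in the first set and for 21 higher and none lower in the second. Cholesterol genes split the other way, with 17 of 22 lower in the second set and none higher. Their sum rose from 1037, 995 and 1024 CPM to 1388, 1395 and 1366 CPM in the first set and moved from 1047 and 1045 CPM to 838 and 894 CPM in the second. In the other experiment 15 of 22 cholesterol genes fell.

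Ribosomal protein genes were higher in the second response for none and lower for 26 of 51, and their difference from OIS against Grow was called for 45 lower in the second set and for 3 lower and 3 higher in the first. Grow-v-v replicate 5 stood apart in that list, at 33547 CPM summed against 19893 to 25179 CPM in the other 4. Lysosome genes were lower in the second set for 16 of 26 and higher for 2, and amino acid and ER stress genes higher for 16 of 23 and lower for 2. Both sets carried the same vectors, and library kit and sequencing instrument were not recorded by library, so that their part in the difference between sets was not tested. Between the experiments the vectors differed, and vector and experiment cannot be told apart.

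**Figure D5:**
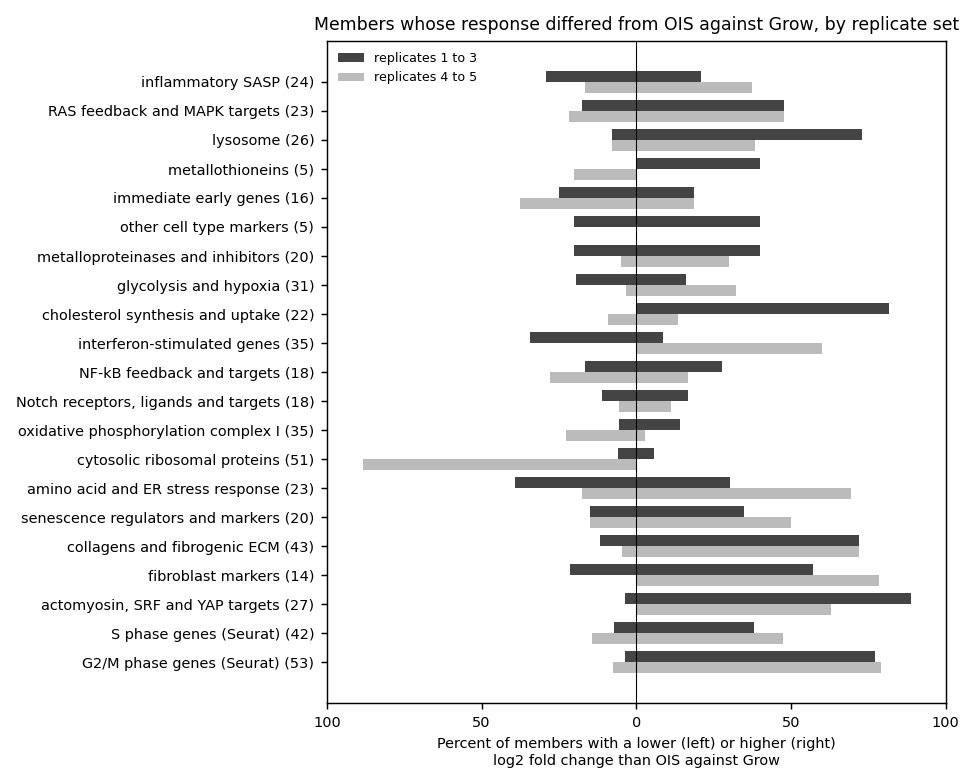
Percent of the members of each list (number tested in brackets) whose log2 fold change was called lower (left) or higher (right) than in OIS against Grow, for replicates 1 to 3 (dark) and 4 to 5 (light). G2/M, matrix and actomyosin genes are called higher in both sets, whereas interferon-stimulated, cholesterol and ribosomal protein genes change with the set.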

How the data were processed

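Grow-v-v and OIS-v-v, and Grow and OIS, were grouped by their labels. The authors aligned stranded poly(A) libraries with STAR to hg19 and deposited raw counts per gene from featureCounts with GENCODE19; the single-vector table names featureCounts 1.5.2 without strand, and the double-vector table names no program. From the deposited counts, genes were filtered by filterByExpr (minimum count 10), scaled by TMM and fitted in edgeR 4.0.16 (R 4.3.3) with the quasi-likelihood test and the replicate number as a block, adjusted over all genes tested. The difference between responses came from 1 fit of 26 libraries. Log2 fold changes of the 2 experiments come from separate fits. Each SE was worked back from the test, as the size of the log2 fold change over the square root of its F statistic.

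Replicate numbers were used as pairs for the double-vector samples, and the levels bore this out only in part. Same-numbered deviations from the group means correlated at 0.128 to 0.283, and at 0.0067 to 0.155 once the mean of the replicate set was taken off. Grow-v-v replicate 3 matched OIS-v-v replicate 1 best, and with the set mean taken off Grow-v-v replicate 1 matched OIS-v-v replicate 2 best. The study calls the samples biological replicates. 34586 of 44503 gene identifiers matched a symbol, and 599 of 606 listed genes were found. Named genes were those the study names, the 5 largest rises and falls (at least 1 CPM, no overlap), the 6 largest differences in each direction, the 4 strongest opposite calls in each direction, and up to 4 members of each list. Members and lists were chosen with earlier results of these data known; the replicate sets were added after seeing them. In simulated data of the same depth, 94.0% of 67 genes changed 2-fold and 62.7% of 67 changed 1.5-fold were recovered in the double-vector design (13240 genes tested). The changed genes were drawn above a minimum mean count, and no difference between replicate sets was simulated. The shares therefore do not measure recovery for genes of few counts or for responses that differ by set. Depth allows a count of 0 to be up to 3 counts; intervals are exact and cover counting error only. Alternatives were DESeq2 1.42.0, other scalings, filters and thresholds, the fit without the block, fewer libraries and each library left out in turn. With the block, leaving out either library of a double-vector pair rests the change on the same remaining pairs. Results for some genes and 1 gene list are not reported here.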

Additional observations from a re-analysis of the deposited data

Results flagged for a closer look

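In 15 of 257 groups of 4 to 10 libraries looked at for the named genes (5.84%), 1 library stood apart from the rest of its group by Dixon's test, and chance gives about 1 in 20. In the double-vector cells it was Grow-v-v replicate 5 each time, the highest for HRAS (1838 CPM), CXCL3 (18.1 CPM) and ENSG00000227363 (0.278 CPM). OIS replicate 4, the shallow library, stood apart for 5 genes, as the lowest for CDKN1A (1026 CPM), PDLIM4 (102 CPM) and CHST15 (0 CPM) and the highest for ADAMTSL1 (1.35 CPM) and LINC02154 (11.3 CPM). Grow replicate 1 stood apart for 4, as the highest for MMP3 (400 CPM), IL36RN (0.0745 CPM) and EGR4 (0.149 CPM) and the lowest for ADAMTSL1 (4.25 CPM). The others were CCNB1 in OIS replicate 6 (lowest, 16.6 CPM), CDK1 in Grow replicate 6 (highest, 119 CPM) and LCE1F in Grow replicate 4 (highest, 0.0534 CPM).

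The responses of the 2 experiments differed by the edgeR test of the difference for 42 of 65 named genes, given here as the double-vector log2 fold change less that of OIS against Grow. Among regulators and early genes it was −0.48 for HMGA1, −0.46 for CEBPB, 0.65 for LMNB1, −1.08 for EGR1, −1.23 for EGR2, −5.20 for EGR4 and −4.43 for ARC. Secreted and matrix genes differed by −0.72 (IL1B), −1.47 (CXCL2), −1.52 (CXCL3), 1.60 (CXCL12), 1.74 (KITLG), 0.77 (CCN2), −0.98 (FBLN2), 0.81 (FBN2), −0.40 (BGN) and 0.32 (TGFBI), and the contractile gene LMOD1 by 1.33. Cell cycle genes differed by 1.02 (PLK1), 1.10 (TOP2A), 0.70 (CCNB1), 1.08 (CDK1), 1.27 (CCNA2), 1.60 (MKI67), 0.35 (E2F1) and −0.43 (PCNA). The remaining differences were −0.75 for GABRA2, −3.49 for LPAR6, −3.34 for FAIM2, −3.27 for MCPH1-AS1, −3.08 for LINC00452, 5.68 for ENSG00000256013 (a fitted value that depends on the prior count, since Grow-v-v had 0 counts and the rise was of at least 3.54-fold), 5.61 for SPNS2, 4.07 for CHST15, 3.85 for L1CAM, 3.41 for HHIP, 3.33 for NSG1, 3.18 for IFI27, 2.86 for KCTD4, −2.63 for AKR1C1, −2.32 for ADSS1 and −1.81 for CRABP2. The genes of the last group were in part picked for the size of their difference.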

How the results depend on the processing

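The number of genes that rose or fell, the number called in the same direction in both experiments, r and the slope moved by less than 1.5 times under DESeq2, the 3 other scalings, the stricter filter, the fit of OIS against Grow without OIS replicate 4 and each left-out library, except as follows. Leaving out each double-vector library gave 2665 to 3533 rises, 2719 to 3592 falls, 4587 to 5721 shared calls, r of 0.866 to 0.881, a slope of 0.800 to 0.812, 2024 to 2468 higher and 1357 to 1748 lower differences, and 129 to 275 opposite calls. Library sizes alone gave 1263 higher and 4033 lower differences. Without a filter beyond 1 count r was 0.595, as genes of few counts then entered. Opposite calls numbered 369 with all 5 groups of the table in 1 fit, 589 from replicates 1 to 3, 614 from replicates 4 to 5 (slope 0.890) and 488 from the mean of the sets, settings chosen after seeing the data for the last 3. With replicates 1 to 5 of Grow and OIS only, 1036 differences were lower. At an adjusted p under 0.01 there were 1546 higher and 841 lower differences and 86 opposite calls. At a fold change of at least 1.5 the rises and falls were 1690 and 2017 (double-vector) and 2296 and 2548 (single-vector), the differences 1068 and 719, the shared calls 2746 and the opposite calls 19. At 2-fold these were 858 and 1133, 1097 and 1477, 405 and 365, 1485, and 5.

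Without the replicate block opposite calls numbered 128, and TGFBI lost its call (−0.36, adjusted p = 0.144). The block changed no other call of a named gene and moved no other count by over 1.5 times (3023 rises and 3091 falls without it). For Grow and OIS the numbers did not pair the samples (correlations of −0.0114 to 0.0563), and their calls without the block were 5164 and 4781.

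Of 1358 values of 65 named gene results, 1331 kept direction and call, 13 lost and 8 gained the call, and 6 changed sign: HMGA1 (−0.01, replicates 4 to 5), EGR2 (−0.04, replicates 1 to 3) and PRKG1 (0.47 in replicates 4 to 5, 0.01 for the mean of the sets, and 0.03 without Grow-v-v replicate 1 and without OIS-v-v replicate 1, with −0.28 to 0.03 over the libraries left out). The cause was not tested. Depth limits genes under about 1 CPM most, and OIS replicate 4, with 1903607 counts, adds little to them.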
